A study of Mus musculus with 6 samples.

Results

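The 10 genes described here encode ligands and receptors of the VEGF and angiopoietin systems of blood vessels: Vegfa, Pgf, Angpt1, Angpt2, Flt1, Kdr, Tek, Tie1, Nrp1 and Nrp2. They were picked by symbol as members of these systems, with earlier results of these data known, and all 10 were found among 54838 mouse Ensembl gene identifiers. RNA was sequenced from isolated glomeruli, the filtering capillary tufts of the kidney, of 3-week-old mice. Of 6 libraries, 3 were labelled CTRL with the genotype wild type, and 3 were labelled KO with the genotype bPIX -/-, a loss that the series describes as specific to podocytes. Arhgef7 encodes bPIX, which activates Cdc42 and Rac1, and podocytes wrap the capillaries of the glomerulus from outside. Each library is from 1 mouse, numbered 157, 162 and 163 in CTRL and 146, 147 and 148 in KO. The sources used here do not give the driver of the podocyte deletion or the method of isolation. The comparison asks which transcripts of these vessel-forming systems differ when podocytes lack bPIX.

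VEGF-A is made by podocytes and crosses the filtration barrier to act on the receptors of the underlying fenestrated endothelium, against the direction of filtrate flow. KDR (VEGFR2) carries most of its signal, FLT1 (VEGFR1) binds it more tightly and also exists as a soluble decoy, and neuropilins are co-receptors that lack kinase activity. In the angiopoietin system ANGPT1 activates the endothelial receptor TEK (Tie2) and stabilises capillaries, ANGPT2 can oppose it, and TIE1 is a related receptor with no high-affinity ligand of its own that modulates TEK.

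Group labels need a caution before any direction is read. For all 6 libraries the file that belongs to a sample is named for the other group. The number can differ as well: the file of the sample labelled CTRL 157 is named for KO 146. Groups and numbers follow the labels here, so the number of a library is as uncertain as its group. The opposite assignment of groups would turn the sign of every difference and leave its size. The targeted gene did not settle this. Arhgef7 had 91.9, 94.1 and 88.4 CPM (a gene's share of the reads assigned to genes in a library, with library sizes scaled by TMM) in CTRL 157, 162 and 163, and 133, 89.6 and 85.9 CPM in KO 146, 147 and 148. A gene total cannot show the loss of single exons, and cells other than podocytes keep the gene.

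Library composition differed between the groups. Gene counts were 39841396 to 51917945 per library. The mean of 20 endothelial markers, a list that holds none of the 10 genes, was 4.56, 4.7 and 4.67 log2 CPM in CTRL 157, 162 and 163, against 7.12, 5.97 and 5.39 in KO 146, 147 and 148. For 16 podocyte markers the mean was 4.9 to 5.22 in CTRL against 8.02, 6.68 and 6.13 in KO 146, 147 and 148. Proximal tubule markers, 18 genes, ran the other way, with 9.28 to 9.39 in CTRL and 8.33, 8.86 and 9.02 in the same KO libraries. As single defining markers, Pecam1 (endothelium) spanned 57.1 to 67.0 CPM in CTRL and 101 to 358 CPM in KO, Nphs1 (podocytes) 45.1 to 58.1 and 119 to 479, Pdgfrb (mesangium) 26.3 to 30.9 and 74.6 to 252, and Lrp2 (proximal tubule) 1350 to 1610 and 753 to 1200. All the cell types named by these lists were thus represented in every library, and KO 146 stood apart from the other 5. Although the source is isolated glomeruli, tubule markers had the highest sums in every library. Proximal tubule markers summed to 21100 to 22700 CPM in CTRL and 10800 to 18100 in KO. Podocyte markers summed to 980 to 1200 and 2330 to 8680, and endothelial markers to 822 to 931 and 1560 to 5210. Such sums give no share of cells. In bulk RNA, more cells of a type and more RNA per cell cannot be told apart. Marker values are given beside the differences below, and the part of composition in them was not tested.

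In the libraries labelled KO the values of the receptors were higher, by about the same amount as those of the endothelial markers. This likeness was not particular to endothelium. The median log2 fold change was 1.74 for the endothelial list, 1.57 for 14 mesangial and smooth muscle markers and 2.1 for the podocyte list. Compared with the receptors, Vegfa and Angpt2 were higher by less and Pgf by more, from a very low level. Angpt1 was not higher. None of the 10 genes passed the test. By edgeR's quasi-likelihood test over 17086 genes, 0 of 10 had a Benjamini-Hochberg adjusted p below 0.05, where 1.01% of tested genes did and 0.591% did so with a higher value. With no adjustment, 9 of 10 were higher at p below 0.05 and 0 lower, where 17.5% of tested genes were higher and 11.8% lower. Their CPM did not overlap between the groups for 9 of 10, all higher in KO, where 21.9% of tested genes were so placed. The median log2 fold change (KO over CTRL by label) of the 10 genes was 1.59, and that of all tested genes -0.006. All 10 passed the low-count filter in all 6 libraries, so none entered through the group where it was high.

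**Figure D1:**
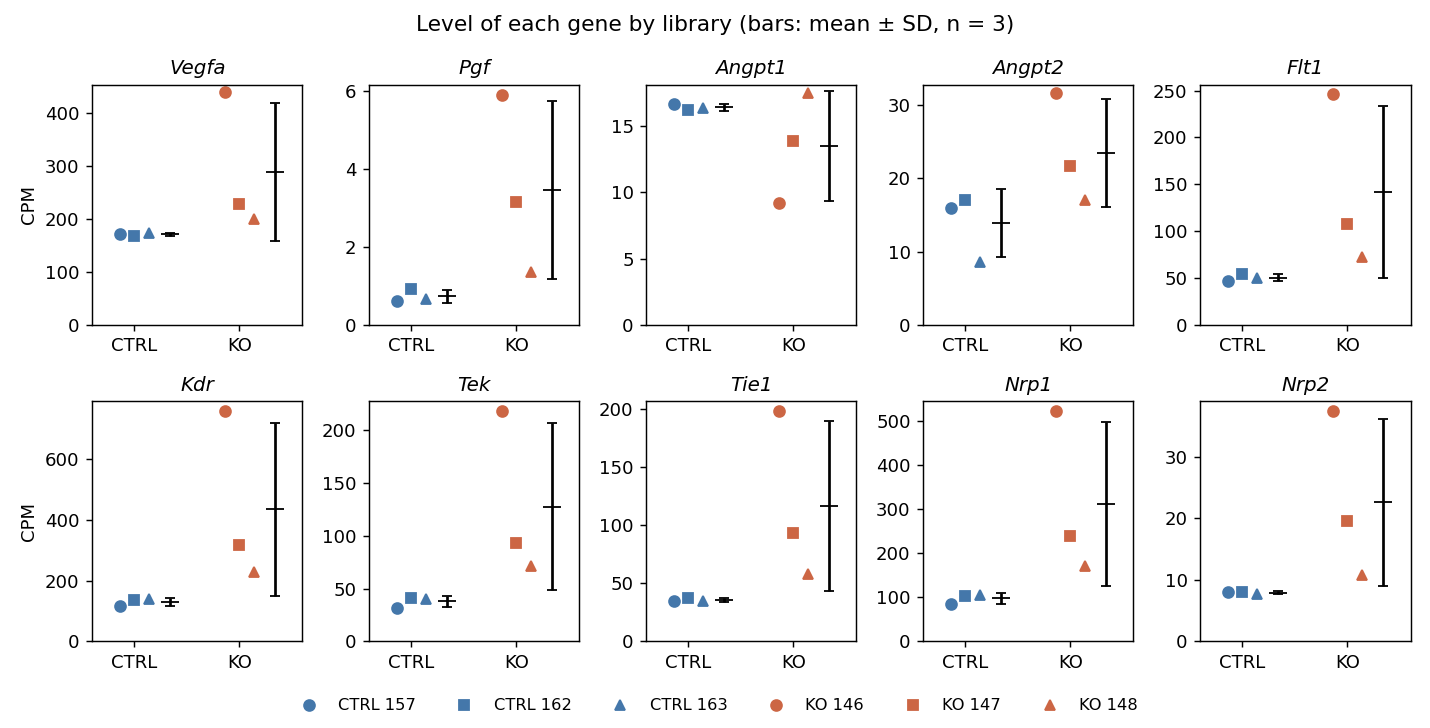
CPM of the 10 genes (y axes, linear from 0, a scale for each gene) in the 3 libraries labelled CTRL (blue) and the 3 labelled KO (orange), with the mean ± SD of each group beside the points. KO 146 is the highest library for 9 genes and the lowest for Angpt1, where it stands at 9.2 CPM against 16.2 to 16.7 in CTRL.

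Kdr, the main signalling receptor for VEGF-A (ENSMUSG00000062960, chromosome 5, 75932827 to 75978458, minus strand, GRCm38), had 115, 137 and 138 CPM in CTRL 157, 162 and 163, and 758, 318 and 227 CPM in KO 146, 147 and 148. Every library labelled KO lay above every library labelled CTRL, and the 3 KO values were far more spread than the 3 CTRL values. Means were 130 ± 12.9 and 434 ± 284 CPM (SD, n = 3 each), with a log2 fold change of 1.74 (SE 0.43, edgeR adjusted p = 0.0777). Flt1 (ENSMUSG00000029648, chromosome 5, 147561604 to 147726011, minus strand) had 46.9, 54.4 and 49.6 CPM in CTRL and 246, 108 and 72.2 CPM in KO 146, 147 and 148. The groups were again apart, with a log2 fold change of 1.5 (SE 0.43, edgeR adjusted p = 0.0869). Counts per gene do not separate the soluble from the membrane form of FLT1.

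Tek, the receptor of the angiopoietins (ENSMUSG00000006386, chromosome 4, 94739289 to 94874976, plus strand), had 32, 40.9 and 40.5 CPM in CTRL and 218, 93.3 and 70.9 CPM in KO 146, 147 and 148. Its partner Tie1 (ENSMUSG00000033191, chromosome 4, 118471191 to 118490061, minus strand) had 34.8, 37.1 and 34.7 CPM in CTRL and 198, 93.5 and 57.7 CPM in KO. In both genes the groups were apart and KO 146 was the highest. Log2 fold changes were 1.75 (SE 0.41) for Tek and 1.71 (SE 0.42) for Tie1, with edgeR adjusted p values of 0.0756 and 0.077.

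The neuropilins bind class 3 semaphorins as well as VEGF. Nrp1 (ENSMUSG00000025810, chromosome 8, 128358604 to 128503363, plus strand) had 83.7, 104 and 106 CPM in CTRL and 523, 240 and 172 CPM in KO 146, 147 and 148, a log2 fold change of 1.67 (SE 0.4, edgeR adjusted p = 0.076). Nrp2 (ENSMUSG00000025969, chromosome 1, 62703285 to 62818695, plus strand) was lower in level, with 8.09, 8.01 and 7.66 CPM in CTRL and 37.5, 19.5 and 10.8 CPM in KO. Its log2 fold change was 1.52 (SE 0.42, edgeR adjusted p = 0.0822). Both genes kept the order of the receptors, with no overlap between the groups.

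The 6 receptors and co-receptors were close to each other in each library labelled KO. Relative to the CTRL mean of the same gene, their log2 ratios ran from 2.25 to 2.54 in KO 146, 1.1 to 1.4 in KO 147 and 0.45 to 0.91 in KO 148. The 20 endothelial markers had medians of 2.48, 1.41 and 0.73 in those libraries and ranges of 1.85 to 3.02, 0.79 to 1.72 and 0.28 to 1.21. Every receptor ratio lay inside the range of the endothelial markers of its library. The 14 mesangial and smooth muscle markers had medians of 2.61, 0.68 and 0.47. Their wider ranges, 1.3 to 3.27, 0.11 to 2.08 and -0.26 to 1.45, also held every receptor ratio. Podocyte markers had medians of 2.99, 1.6 and 1.04 and ranges of 2.24 to 3.38, 1.04 to 2.0 and 0.69 to 1.39. These podocyte ranges held every receptor ratio in KO 146 and KO 147, but not in KO 148. Proximal tubule markers had medians of -0.99, -0.4 and -0.27.

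**Figure D2:**
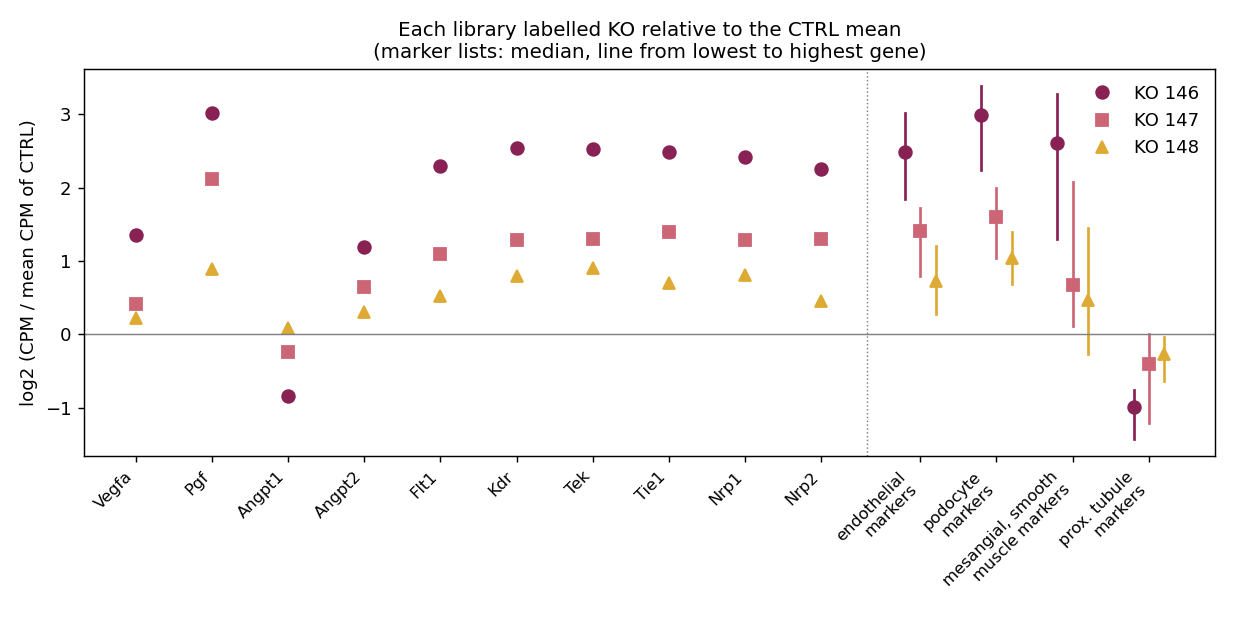
Log2 ratio of each library labelled KO to the mean CPM of the libraries labelled CTRL (y axis) for the 10 genes, and at the right for 4 marker lists as the median with a line from the lowest to the highest gene. The 6 receptors sit at 2.25 to 2.54 in KO 146, while Vegfa sits at 1.36 and Angpt1 at -0.84. Marker medians in KO 146 are 2.48 (endothelial), 2.99 (podocyte), 2.61 (mesangial and smooth muscle) and -0.99 (proximal tubule).

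Promoter sequences are shown for the 4 receptor kinases because they had similar ratios in every library labelled KO. Of the 10 genes, 8 have an entry among the RefSeq promoters of GRCm38.p6, while Angpt1 and Angpt2 do not. Each window below holds the 250 bases upstream of the RefSeq start, 5′ to 3′ on the gene's strand: Kdr at chr5:75978456-75978705 (minus), Flt1 at chr5:147726012-147726261 (minus), Tek at chr4:94739039-94739288 (plus) and Tie1 at chr4:118489850-118490099 (minus). Capitals mark the letters CCGGAA or CAGGAA or their reverse complements, 2 of the forms of the GGAA core bound by ETS factors. GGAA after other letters was not searched, and it or its reverse complement occurs unmarked in the windows of Kdr, Flt1 and Tie1. The counts below are thus not counts of GGAA, and a count of 0 is no absence of it. The letters of the 2 searched forms differ before GGAA, so no stretch was counted under both.
Kdr: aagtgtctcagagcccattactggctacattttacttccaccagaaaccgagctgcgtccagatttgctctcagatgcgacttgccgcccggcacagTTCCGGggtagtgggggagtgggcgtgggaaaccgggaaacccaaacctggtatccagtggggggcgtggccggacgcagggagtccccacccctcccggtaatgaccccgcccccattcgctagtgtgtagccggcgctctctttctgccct
Flt1: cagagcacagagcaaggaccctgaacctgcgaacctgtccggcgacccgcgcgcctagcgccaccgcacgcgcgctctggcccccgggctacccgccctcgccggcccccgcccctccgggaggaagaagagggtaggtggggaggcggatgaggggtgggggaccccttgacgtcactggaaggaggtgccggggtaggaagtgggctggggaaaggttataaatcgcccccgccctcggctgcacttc
Tek: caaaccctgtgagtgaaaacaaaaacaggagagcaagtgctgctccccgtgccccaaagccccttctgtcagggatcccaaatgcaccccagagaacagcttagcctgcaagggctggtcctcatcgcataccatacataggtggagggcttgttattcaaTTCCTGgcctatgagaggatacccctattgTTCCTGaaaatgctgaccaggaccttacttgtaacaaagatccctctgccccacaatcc
Tie1: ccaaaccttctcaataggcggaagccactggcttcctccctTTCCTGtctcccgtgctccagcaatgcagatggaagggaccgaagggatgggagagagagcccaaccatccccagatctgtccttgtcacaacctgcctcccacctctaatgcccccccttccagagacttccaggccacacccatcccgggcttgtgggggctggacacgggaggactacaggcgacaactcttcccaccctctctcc
Kdr and Tie1 held 1 match each, Tek 2 and Flt1 0. Most of the Tie1 window, with its match, lay inside the annotated gene (118471191 to 118490061). Nrp2 held 1 and Nrp1 0. The Nrp1 window (128358823 to 128359072) lay wholly inside its annotated gene (128358604 to 128503363). At least 1 match was present in 35.1% of all 32851 RefSeq windows of this length. The letters ACGTG are the core of the hypoxia response element and were searched on both strands. They matched in 0 of the 6 receptor and co-receptor windows and in 1 of 2 windows of Vegfa. Of all windows, 16.6% hold them. The Vegfa match lay in the window at chr17:46025164-46025413, inside the annotated gene (46016993 to 46032369). The window upstream of that gene, at chr17:46032378-46032627, held 0. These matches describe letters and are no evidence of binding.

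Vegfa (ENSMUSG00000023951, chromosome 17, 46016993 to 46032369, minus strand) had the highest CPM of the 4 ligands among the 10 genes. It had 171, 168 and 174 CPM in CTRL 157, 162 and 163 and 439, 228 and 199 CPM in KO 146, 147 and 148. The groups did not overlap, although KO 148 was only modestly above the CTRL libraries. Means were 171 ± 2.72 and 289 ± 131 CPM (SD, n = 3 each), with a log2 fold change of 0.76 (SE 0.29, edgeR adjusted p = 0.149).

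Vegfa was also set against the podocyte markers and its receptor, and both differences were lower in KO without passing the test. Within a library, Vegfa minus the mean of the podocyte markers was 2.39, 2.49 and 2.22 log2 CPM in CTRL 157, 162 and 163, against 0.76, 1.15 and 1.5 in KO 146, 147 and 148. The group means were 2.37 ± 0.14 and 1.14 ± 0.37 (SD, n = 3 each), a difference of -1.23 with no overlap (exact two-sided permutation p = 0.1, the smallest that 3 against 3 allows, adjusted over 8 such differences 0.267). Vegfa minus Kdr was 0.57, 0.29 and 0.33 in CTRL, against -0.79, -0.48 and -0.19 in KO, a difference of -0.88 (exact permutation p = 0.1, adjusted 0.267). In CPM, Vegfa therefore stood above Kdr in every CTRL library and below it in every KO library, on a scale not corrected for gene length. Per kilobase of annotated exon, the mean of Vegfa was above that of Kdr in both groups. These means were 39.9 and 14.4 CPM per kilobase in CTRL and 67.3 and 48.1 in KO. Vegfa is also transcribed in kidney tubules, whose markers had lower values in the KO libraries. The part of tubule RNA in these 2 differences was not tested.

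Differences of the receptors from the endothelial markers were small, and their order depended on how the list was summarised. Kdr minus the endothelial mean was 2.38 ± 0.08 log2 CPM in CTRL and 2.41 ± 0.06 in KO, and Nrp1 minus the same mean was 1.96 ± 0.12 and 1.96 ± 0.07 (SD, n = 3 each). Tek gave 0.59 ± 0.13 and 0.66 ± 0.09, and Tie1 0.51 ± 0.06 and 0.52 ± 0.06. Exact permutation p values of these 4 differences ran from 0.5 to 1.0, and 2 groups of 3 cannot show that they are equal. Flt1 minus the endothelial mean was 0.99, 1.07 and 0.96 in CTRL 157, 162 and 163, against 0.83, 0.79 and 0.79 in KO 146, 147 and 148. That is a difference of -0.21 with no overlap (exact permutation p = 0.1, adjusted 0.267). With the median of the list in place of its mean, the difference of Flt1 was -0.017 (exact permutation p = 0.8). Those of Kdr, Nrp1, Tek and Tie1 then became 0.224, 0.193, 0.263 and 0.201 (exact permutation p = 0.1 each). So neither a lower Flt1 nor equal values of the others held under both summaries.

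**Figure D3:**
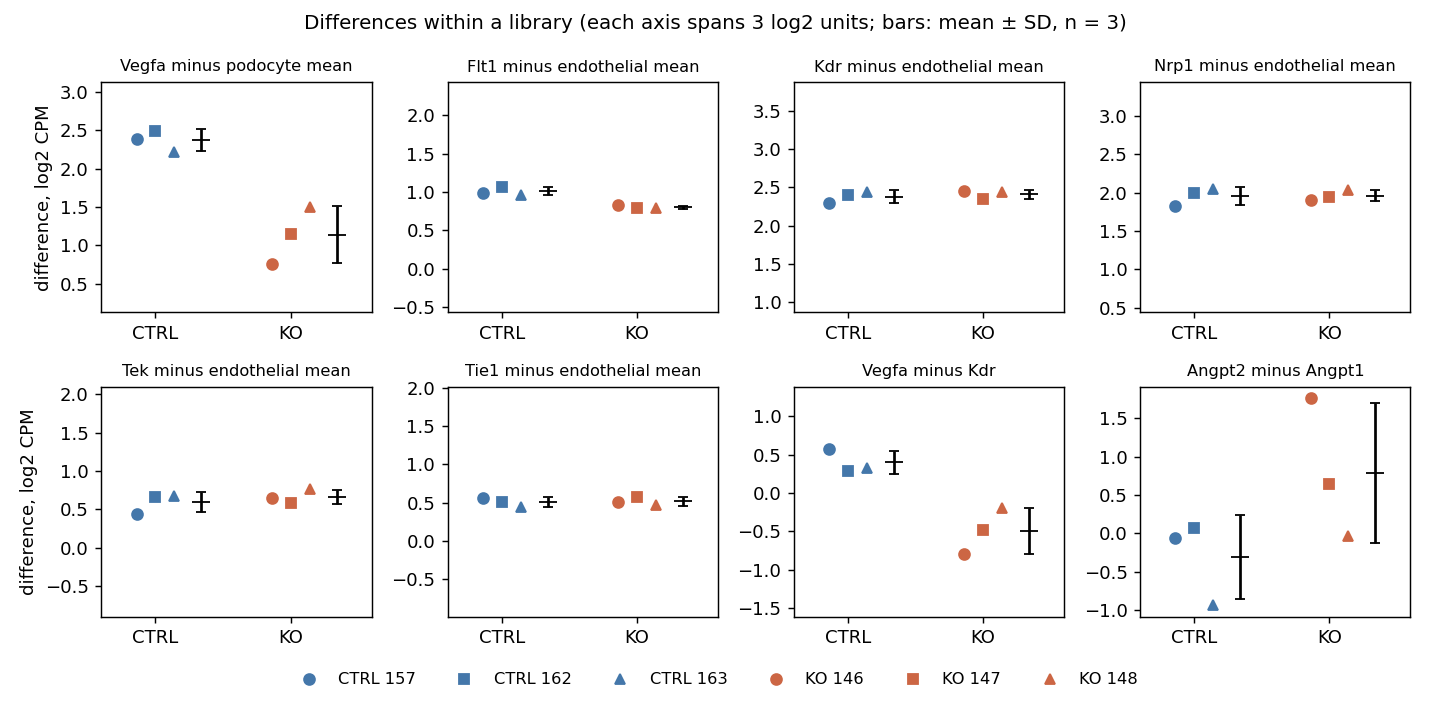
Differences of log2 CPM within each library (y axes, each spanning 3 log2 units) for 8 pairs of a gene with a marker list mean or a second gene, with the mean ± SD of each group beside the points. Vegfa minus the podocyte mean spans 2.22 to 2.49 across CTRL and 0.76 to 1.5 across KO, while Kdr, Nrp1, Tek and Tie1 minus the endothelial mean overlap between the groups (with the list's median the differences of these 4 are 0.193 to 0.263).

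Pgf, placental growth factor, which binds FLT1 but not KDR (ENSMUSG00000004791, chromosome 12, 85166635 to 85177790, minus strand), was the least abundant of the 10. Its raw counts were 26, 35 and 29 in CTRL 157, 162 and 163, against 347, 130 and 61 in KO 146, 147 and 148, or 0.604, 0.919 and 0.655 CPM against 5.88, 3.14 and 1.34 CPM. The groups were apart, but the exact Poisson 95% interval of KO 148 (1.03 to 1.72 CPM) met that of CTRL 162 (0.64 to 1.28 CPM), and such intervals cover counting error only. The log2 fold change was 2.26 (SE 0.54, edgeR adjusted p = 0.0757), the highest of the 10, and 0.661% of tested genes had a higher one.

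Neither angiopoietin passed the test. Angpt1, the agonist of TEK (ENSMUSG00000022309, chromosome 15, 42424723 to 42676977, minus strand), had 16.7, 16.2 and 16.4 CPM in CTRL and 9.2, 13.9 and 17.5 CPM in KO 146, 147 and 148. The groups overlapped, with KO 146 the lowest and KO 148 the highest of the 6 libraries. Its log2 fold change was -0.28 (SE 0.22, edgeR adjusted p = 0.427). An antisense gene, Gm17473, shares 737 exonic bases with Angpt1, and without a known strand setting their reads cannot be told apart.

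Angpt2, which can block TEK (ENSMUSG00000031465, chromosome 8, 18690263 to 18741562, minus strand), had 16, 17 and 8.54 CPM in CTRL 157, 162 and 163 and 31.6, 21.7 and 17.1 CPM in KO 146, 147 and 148. KO 148 and CTRL 162 were nearly equal, with Poisson intervals of 15.9 to 18.3 and 15.7 to 18.4 CPM, so the separation of the groups was smaller than counting error. The log2 fold change was 0.76 (SE 0.32, edgeR adjusted p = 0.17). Angpt2 minus Angpt1 was -0.06, 0.07 and -0.94 log2 CPM in CTRL, against 1.77, 0.64 and -0.04 in KO. These overlapped, with means of -0.31 ± 0.55 and 0.79 ± 0.91 (SD, n = 3 each, exact permutation p = 0.2, adjusted 0.4).

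Levels can be compared between genes only per length, here as CPM per kilobase of annotated exon. In CTRL the order was Vegfa (39.9 ± 0.636), Kdr (14.4 ± 1.43), Nrp1 (10 ± 1.25), Tek (8.03 ± 1.06), Tie1 (7.23 ± 0.269), Angpt2 (3.75 ± 1.25), Flt1 (3.72 ± 0.28), Angpt1 (3.16 ± 0.0463), Nrp2 (0.669 ± 0.0192) and Pgf (0.25 ± 0.0582). The gap between neighbours was smaller than the sum of their SDs for Nrp1 and Tek, for Tek and Tie1, and for Angpt2 and Flt1, and larger for the other neighbours. In KO the leading levels were Vegfa (67.3 ± 30.7), Kdr (48.1 ± 31.4), Nrp1 (31.8 ± 19.0), Tek (27.0 ± 16.8) and Tie1 (23.7 ± 14.8). Flt1 (10.5 ± 6.8), Angpt2 (6.36 ± 2.0), Angpt1 (2.6 ± 0.803), Nrp2 (1.91 ± 1.15) and Pgf (1.19 ± 0.787) followed, and of all neighbours in KO only Angpt2 and Angpt1 were further apart than the sum of their SDs. The exon length of Flt1, 13.504 kb, includes all of its annotated transcripts, which lowers its level per kilobase if only a part of them is made.

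The absence of calls depended on single libraries. Without KO 146 edgeR called 8 of the 10 genes higher, all but the angiopoietins, where 10.5% of all tested genes were called higher. The log2 fold change of Kdr was then 1.06 (SE 0.16, adjusted p = 0.00955), that of Tek 1.11 (SE 0.15, adjusted p = 0.00887) and that of Vegfa 0.31 (SE 0.072, adjusted p = 0.0217). Without KO 148 the same 8 were called higher, where 12.9% of tested genes were, and Vegfa stood at 0.96 (SE 0.25, adjusted p = 0.0468). With CTRL 157, CTRL 162, CTRL 163 or KO 147 left out, 0 were called, where 0.0114%, 0.0171%, 0.0569% and 0.0115% of tested genes were. DESeq2 on all 6 libraries called 7 higher, Pgf and the 6 receptors and co-receptors, where 11.7% of tested genes were called higher, and limma-voom called 0, where 0.796% of tested genes were called.

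The proximal tubule marker mean was also entered as a covariate. The median of the 10 log2 fold changes was 0.11, and edgeR called 0, where 1.36% of tested genes were called. Vegfa turned to -0.31 (SE 0.11, adjusted p = 0.235), Flt1 to -0.13 (SE 0.13, adjusted p = 0.677) and Angpt1 to 0.42 (SE 0.13, adjusted p = 0.18). Kdr stood at 0.09 (SE 0.099), Tek at 0.21 (SE 0.1), Tie1 at 0.13 (SE 0.16), Nrp1 at 0.17 (SE 0.11) and Nrp2 at 0.00 (SE 0.2). Pgf, at 0.53 (SE 0.41), had the highest value of the 10 in this fit, and Angpt2 was at 0.08 (SE 0.58). The covariate does not overlap between the groups, so group and tubule content cannot be fully told apart in this fit. Over all settings the adjusted p ran from 0.000517 to 0.714 for Kdr, 0.0217 to 0.399 for Vegfa and 0.1 to 0.71 for Angpt1.

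**Figure D4:**
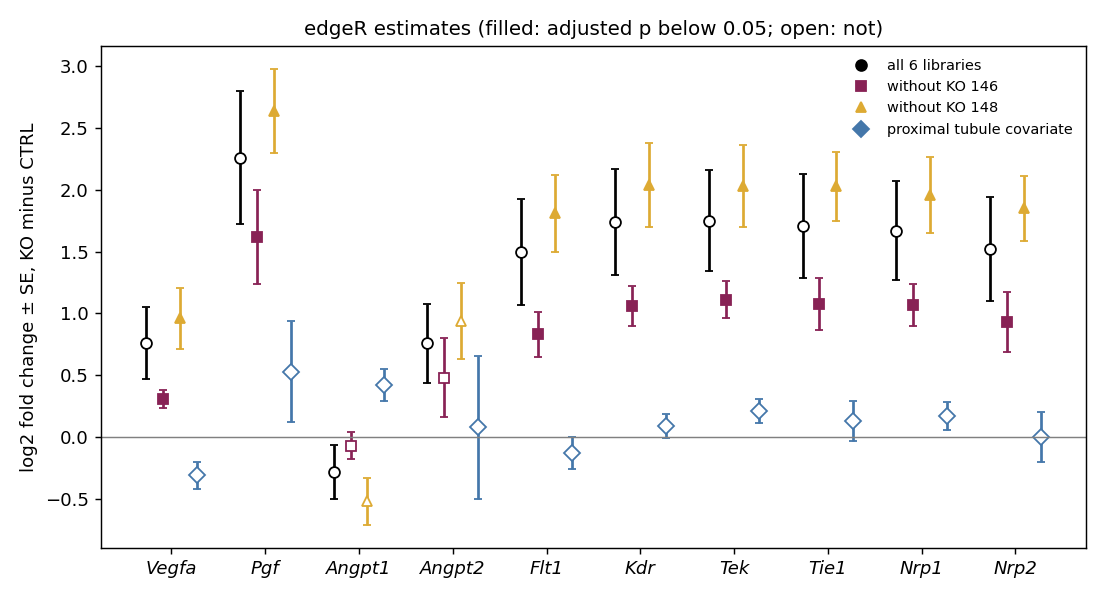
Log2 fold change of KO over CTRL with its SE (y axis) for the 10 genes in the edgeR fit to all 6 libraries, without KO 146, without KO 148 and with the proximal tubule covariate, where filled symbols have an adjusted p below 0.05. Kdr stands at 1.74, 1.06, 2.04 and 0.09 in these 4 fits, and Angpt1 and Angpt2 have open symbols in all of them.

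Other genes of the 2 pathways were taken from a list of 48, of which 47 were tested. Sema3a, with 3 to 25 counts per library, did not pass the filter. Over all tested genes edgeR called 0 of the 47 (background 1.01%), and log2 fold changes were positive for 35 and negative for 12. Their median was 0.43, where that of the whole table was -0.006. With no adjustment 24 were higher and 1 lower at p below 0.05, where 17.5% and 11.8% of tested genes were. DESeq2 called 17 higher and 1 lower (background 11.7% and 5.65%), and limma-voom called 0.

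Among the 6 with the smallest unadjusted p, Sema3g is a secreted class 3 semaphorin and so a neuropilin ligand. It went from 92.5 ± 11.5 CPM in CTRL to 577 ± 372 CPM in KO (SD, n = 3 each). Its log2 fold change was 2.64 (SE 0.45, edgeR adjusted p = 0.0594). Its log2 ratios to the CTRL mean were 3.43, 2.28 and 1.63 in KO 146, 147 and 148. Marker medians there were 2.99, 1.6 and 1.04 (podocyte) and 2.48, 1.41 and 0.73 (endothelial). The part of cell composition in the Sema3g difference was not tested. Vash1, a secreted inhibitor of vessel growth, had a log2 fold change of 2.37 (SE 0.5), and Hlx, a homeobox factor, of 1.97 (SE 0.44). Flt4, the receptor of VEGF-C, stood at 1.71 (SE 0.39), with 7.32, 9.51 and 8.16 CPM in CTRL 157, 162 and 163 and 45.1, 20.9 and 15.7 CPM in KO 146, 147 and 148. Flt4 also marks lymphatic vessels. Of 4 lymphatic and peritubular markers, Lyve1 had 1 to 25 counts per library and did not pass the filter, Prox1 had 11, 11.6 and 11.3 CPM in CTRL and 7.79, 10.7 and 12.2 CPM in KO, and Reln had 1.51 to 2.31 and 1.07 to 2.1 CPM. Plvap had 33.9 to 42.1 CPM in CTRL and 44.1 to 112 CPM in KO. The part of lymphatic vessels in the Flt4 difference was not tested. Plxnd1, a semaphorin receptor of endothelium, was at 1.81 (SE 0.42) and Epas1, the hypoxia-inducible factor HIF-2 alpha, at 1.56 (SE 0.36). The 5 genes after Sema3g had edgeR adjusted p values of 0.0753 to 0.0755.

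By role, the 4 receptors and receptor partners Flt4, Ptprb, Plxnd1 and Efnb2 lay between 1.65 and 1.88 and were all higher in KO with no overlap between the groups, where 21.9% of tested genes were. Of 7 genes of the oxygen pathway that controls Vegfa, Epas1 included, 3 were positive and 4 negative, and 6 lay between -0.18 and 0.22. Among these, Vhl, which targets HIF proteins for destruction, was at -0.02 (SE 0.074). Hif1a stood at -0.18 (SE 0.076, edgeR adjusted p = 0.18) and Egln1 at -0.14 (SE 0.07, edgeR adjusted p = 0.234), and neither passed the test. Without KO 146 edgeR called Hif1a lower, at -0.22 (SE 0.058, adjusted p = 0.033). In that fit 16 of 47 pathway genes were called higher, where 10.5% of tested genes were. It called 3 of 47 lower, Hif1a included, and 1147 of all 17339 tested genes, so calls of lower genes were common in it. Of 12 signalling genes downstream of VEGF receptors, 9 were positive, from Sh2d2a at 0.2 to Nos3, the endothelial nitric oxide synthase, at 1.72. Of 5 genes of TEK signalling, 3 were positive and 2 negative, within -0.49 and 0.52, and 1 (Tnip2, at 0.52) was higher at an unadjusted p below 0.05, near the 17.5% of all tested genes. Of 8 genes induced by VEGF in endothelium, 7 were positive. Among them were the Notch ligand Dll4 at 1.67 (SE 0.44) and Apln, which encodes apelin, at 0.68 (SE 0.17). The tip cell gene Esm1 was at 0.84 (SE 0.31) and Dusp5 at 0.16 (SE 0.27), and the groups overlapped for both. Rcan1 was the negative one, at -0.03 (SE 0.15), and its groups overlapped too. Kcne3, at 2.43, passed the filter in 1 of 3 CTRL libraries and all KO libraries, so its value is in part fixed by the filter. Except for Sema3g, Vash1, Hlx, Flt4, Epas1 and Plxnd1, the pathway genes named here were chosen after their values were seen.

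Of the other VEGF ligands, none passed the test with all 6 libraries, and differences between ligands were not tested. Vegfb had 64.4, 64.5 and 66.2 CPM in CTRL and 46.7, 74.7 and 79.2 CPM in KO 146, 147 and 148, a log2 fold change of 0.04 (SE 0.19, edgeR adjusted p = 0.907). KO 146 lay below all CTRL libraries and the other two above them. Without KO 146 edgeR called Vegfb higher at 0.24 (SE 0.055, adjusted p = 0.0224). It was also 1 of 2 pathway genes called with the tubule covariate, at 0.66 (SE 0.1, adjusted p = 0.0134), with Sema3g at 1.01 (SE 0.18, adjusted p = 0.0434). Vegfd had 5.74, 5.04 and 7.32 CPM in CTRL and 12.3, 8.33 and 6.62 CPM in KO, which overlapped, with a log2 fold change of 0.59 (SE 0.26, edgeR adjusted p = 0.184). Vegfc, the ligand of FLT4, had 3.14 to 3.31 CPM in CTRL and 16.1, 5.21 and 4.11 CPM in KO, and its log2 fold change was 1.39 (SE 0.51, edgeR adjusted p = 0.136). Timp3, a matrix inhibitor that also blocks VEGF binding to KDR, was lower in every KO library, with 1190 ± 105 CPM in CTRL and 841 ± 112 in KO (SD, n = 3 each). Its log2 fold change was -0.5 (SE 0.15, edgeR adjusted p = 0.0894).

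Genes most like 5 of the members were sought among 10863 protein-coding genes averaging 5 CPM or more, by Pearson's r of log2 CPM over the 6 libraries. These values describe 6 points that share the group difference and the composition of each library. For Kdr they were Pip4k2a (0.9997), AU021092 (0.9996) and Sh3kbp1 (0.9995), for Flt1 She (0.9999), Pitpnm2 (0.9998) and Dpy19l1 (0.9998), and for Tek Mmp14 (0.9994), Grap (0.9993) and Osmr (0.9992). For Vegfa they were Ptpn9 (0.9996), Fryl (0.9992) and Macf1 (0.9991), and for Angpt1 Ggnbp1 (0.9967), Ppat (0.9966) and Nudt7 (0.9966). Among the members themselves, Kdr with Nrp1 had an r of 0.999, Kdr with Vegfa 0.967 and Kdr with Angpt1 -0.902.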

How the data were processed

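The authors' tools, as the submitters' processing notes list them, include HTSeq 0.11.1, STAR 2.6.0, DESeq2 and fastp 0.19.5. The listed build is GRCh37, a human assembly, although the gene identifiers are those of mouse. Strand setting and annotation release: not given in the sources used here. Each library has 1 deposited file of raw counts by gene. The 5 closing lines that name no gene entered neither library sizes nor tests. The largest, reads aligned to more than 1 place, was 22.51% to 29.63% of all records, and shares of reads in no feature were 2.57% to 3.41%, ambiguous 1.55% to 1.79%, of low quality 0.13% to 0.15% and unaligned 0.7% to 1.22%.

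Symbols, positions and exon lengths came from GENCODE M21 (GRCm38), which named 54809 of 54838 identifiers. Counts were tested in R 4.3.3 with edgeR 4.0.16 (TMM, filterByExpr with a minimum count of 10, robust quasi-likelihood F test, KO against CTRL, no covariate), with Benjamini-Hochberg adjustment over the 17086 genes tested and calls at 0.05. SEs were obtained from the fold change and F. Log2 CPM used a prior count of 2. Within-library differences were tested by exact two-sided permutation (scipy 1.17.1). Alternatives were RLE factors, library totals, other filters, DESeq2 1.42.0, limma-voom 3.58.1, other quasi-likelihood forms, a tubule covariate and each library left out. The edgeR script was tested on simulated counts. Replicate libraries differed by more than sampling noise (chi-square per degree of freedom 16.7 or more), so none was a second copy. Each group has 3 mice, per the labels.

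The 10 genes and the marker and pathway lists were chosen with earlier results of these data known. Named genes were the 10 members, Arhgef7, the 6 pathway genes of smallest unadjusted p (none being called), the 3 genes most correlated with each of 5 members, and 4 defining markers. Others are marked where named.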

Additional observations from a re-analysis of the deposited data

How the results depend on the processing

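The log2 fold changes of the 10 genes kept their sign in every setting except the proximal tubule covariate, where Vegfa (-0.308), Flt1 (-0.13) and Angpt1 (0.419) reversed. Over all genes edgeR called 173 in the fit to all 6 libraries, 960 with no low-count filter and 2 to 3211 with a library left out, while DESeq2 called 2959. Of the 10 genes it called 0, with 0 to 8 when a library was left out and 7 by DESeq2. Of the pathway list it called 0, with 0 to 20 when a library was left out, 18 by DESeq2 and 2 with the covariate. The runs without KO 146 and without KO 148 gave the high counts, 2974 and 3211 genes, and those without CTRL 157, CTRL 162, CTRL 163 and KO 147 gave 2, 3, 10 and 2. The cause was not tested. Scaling by library totals moved the median of all genes to 0.132 and the median of the 10 to 1.77, and moved the share of calls that were higher from 58.4% to 69.5%.

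Of the 8 within-library differences, those of Vegfa with podocyte markers (-1.417 to -1.044), Vegfa with Kdr (-1.029 to -0.733), Flt1 (-0.229 to -0.176), Tek (0.002 to 0.117) and Angpt2 with Angpt1 (0.613 to 1.518) kept their sign with each library left out. Those near 0 did not: Kdr ranged from -0.008 to 0.069, Nrp1 from -0.062 to 0.051 (-0.033 without KO 148) and Tie1 from -0.019 to 0.041. A prior count of 0.5 and list medians reversed none, but with the list median the difference of Flt1 was -0.017. No paired analysis was possible because the groups share no replicate number. The legacy quasi-likelihood form planned as an alternative is the default of this edgeR version and so the fit reported, and the newer form, chosen after seeing the data, called 178 genes.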
